A study of Mus musculus with 6 samples.

Results

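The genes described here are 10 transcriptional outputs and inhibitors of growth factor signalling through the RAS-RAF-MEK-ERK cascade, a mitogen-activated protein kinase (MAPK) pathway: Dusp4, Dusp6, Spry1, Spry2, Spry4, Spred1, Spred2, Etv1, Etv4 and Etv5. They were chosen by symbol as well-known feedback genes of this pathway. All 10 of 10 were among the 24421 genes listed and among the 15906 with enough counts to be tested. RNA-seq had been made from 6 libraries of mouse oligodendrocyte progenitor cells (OPCs), which divide in the young brain and mature into the oligodendrocytes that make myelin. Of these, 3 libraries came from Prrc2bf/f mice, which carry floxed Prrc2b alleles and no Cre (control), and 3 from Prrc2bf/f; Olig2-Cre mice (knockout), in which the Cre follows Olig2 expression. Cells came from the cortex of C57BL/6J pups at postnatal day 4, were purified by panning, first on GalC and next on O4 antibody, and were plated. Every group received the same proliferation medium, with PDGF-AA, bFGF and CNTF at 10 ng/ml each, NT3 at 1 ng/ml, insulin at 5 μg/ml and forskolin at 2 μM. The medium thus held ligands that activate the ERK cascade in every library, and no library without growth factor was analysed here. The series' own design statement speaks of brain tissue at this age, not of cultured cells. A group with Olig2-Cre and intact Prrc2b was not analysed here, so an effect of the Cre and an effect of losing Prrc2b cannot be told apart. Nothing in the labels ties a library to an animal, so p-values reflect only how far these libraries spread, which may be technical.

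Receptor tyrosine kinases for PDGF and FGF activate RAS, which passes the signal through RAF and MEK kinases to ERK. Active ERK phosphorylates transcription factors and thereby switches on genes that damp the cascade itself. Dual-specificity phosphatases (DUSPs) take the phosphates off ERK, Sprouty and SPRED proteins act between receptor and RAF, and the ETS factors Etv1, Etv4 and Etv5 carry the signal on to further genes. Capicua, encoded by Cic, represses many of these genes until ERK relieves the repression. In OPCs, PDGF and FGF signalling through this cascade keeps the cells dividing. Transcript levels of these genes are therefore often read as a record of recent ERK activity, but ERK activity itself was not measured here.

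Promoter sequence was looked at because Capicua binds DNA directly at several genes of this feedback group. RefSeq promoter windows (GRCm38.p6), from 250 bases before to 50 bases after an annotated start, were matched by symbol for 7 of the 10 genes, as 9 windows. Dusp4, Spry4 and Etv4 had no window. Capicua is known to bind octamers written here as TGAATGAA, TGAATGGA, TCAATGAA and TCAATGGA, which were searched on both strands. At least 1 of them was found in the windows of Dusp6 and Spry2 only, among the 7 genes matched. In all, 3.84% of 32851 promoter windows of the same length hold one. The shorter core TGAATG, part of the first pair of octamers, was found for Dusp6 and Etv5 and occurs in 12.7% of all windows. The 250 bases before the start are printed for these 3 genes, 5′ to 3′ on the strand of the gene, with octamers and core hexamers in capitals. The Dusp6 stretch lies at chr10:99262981-99263230 (plus strand) and the Spry2 stretch at chr14:105896820-105897069 (minus strand), neither inside an annotated gene. The Etv5 stretch lies at chr16:22438369-22438618 (minus strand), in an intron of the longer Etv5 transcripts.
Dusp6: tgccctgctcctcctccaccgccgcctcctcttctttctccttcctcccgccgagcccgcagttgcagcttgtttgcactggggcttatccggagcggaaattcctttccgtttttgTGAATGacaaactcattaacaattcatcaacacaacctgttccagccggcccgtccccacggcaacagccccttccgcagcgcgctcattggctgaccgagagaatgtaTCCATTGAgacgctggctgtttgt
Spry2: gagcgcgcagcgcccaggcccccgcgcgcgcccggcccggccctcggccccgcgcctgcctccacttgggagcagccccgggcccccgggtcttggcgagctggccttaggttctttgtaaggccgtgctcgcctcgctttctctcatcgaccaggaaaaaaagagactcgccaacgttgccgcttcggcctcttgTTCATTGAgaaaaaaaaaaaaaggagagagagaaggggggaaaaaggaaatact
Etv5: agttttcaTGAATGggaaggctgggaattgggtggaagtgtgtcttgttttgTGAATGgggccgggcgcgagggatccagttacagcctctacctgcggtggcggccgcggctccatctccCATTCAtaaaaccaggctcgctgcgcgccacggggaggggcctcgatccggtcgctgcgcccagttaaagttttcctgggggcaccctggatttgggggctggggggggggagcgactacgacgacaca
The Dusp6 octamer is TCAATGGA read on the opposite strand, 17 to 24 bases before the start, and another copy lies just after the start, outside the printed stretch. Its core hexamer lies 128 to 133 bases before the start. The Spry2 octamer is TCAATGAA read on the opposite strand, 47 to 54 bases before the start. Etv5 had 2 windows. The printed stretch holds 3 core hexamers, the nearest 124 to 129 bases before its start. The other window, upstream of it, holds no octamer or core hexamer. A cAMP response element, relevant because forskolin raises cAMP, was searched as TGACGTCA and found in 0 of the 9 windows (1.79% of all windows). Its first 6 letters, TGACGT, were found for Spred2 (7.51% of all windows). An ETS site, searched as CCGGAAG, was found in 0 of the 9 windows (8.86% of all windows). These are matches of letters and say nothing of binding in these cells.

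Gene counts summed to between 26015604 and 28114968 read pairs per library. The counts of the 10 genes ran from 433 to 6095 in a library, so counting error was small beside the spread within each group. Counting error was not compared with the smaller differences between same-numbered libraries of the 2 groups. Levels are CPM, a gene's count as a share of the library's total on a common per-library scale, adjusted by edgeR's TMM factors. The targeted gene, Prrc2b, stood at 933, 1111 and 926 CPM in control libraries 1, 2 and 3 and at 649, 824 and 758 CPM in knockout libraries. Every knockout library was below every control library. Same-numbered libraries of the 2 groups deviated together, so each comparison is given from edgeR's quasi-likelihood test without the replicate number, the main test, and from a paired fit that adds the number as a block. In the paired fit Prrc2b was at -0.41 ± 0.06 on the log2 scale (SE, adjusted p = 0.00688 in edgeR), and unpaired at -0.41 ± 0.13 (SE, adjusted p = 1.00 in edgeR). These whole-gene counts do not tell floxed exons from others. Of the 11262 exon bases of Prrc2b, 738 are shared with Gm13610 on the opposite strand, and reads of the 2 genes may not be separated. The OPC markers fixed for this work, 10 genes including Pdgfra and Cspg4, were all detected in every library. They summed to between 2747 and 4633 CPM in control and 2730 and 5427 CPM in knockout libraries. In the paired fit 0 of the 10 passed. Nearest was Olig2, at -0.50 ± 0.12 (SE, adjusted p = 0.0533 in edgeR) and lower in the knockout at each number. Markers of neurons and astrocytes were detected beside the OPC markers, as given below, so the libraries were not OPCs alone. In such bulk RNA, fewer cells of a type and less RNA per cell cannot be told apart.

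Per kilobase of exon, Spry2 and Dusp4 had the highest levels of the 10 genes. Length was taken over all annotated exons of a gene, which can exceed that of the transcripts expressed, so the order depends on annotation. Etv1, the longest at 13.3 kilobases, had a control mean of 125 CPM, against 116 CPM for Spry2 at 2.09 kilobases. The control levels were 55.4 ± 24.0 CPM per kilobase for Spry2 and 53.5 ± 6.74 for Dusp4 (SD, n = 3). Spred1 followed at 28.7 ± 3.44 and Etv5 at 25.3 ± 6.73 CPM per kilobase. Every control library was higher for Spry2 and Dusp4 than the highest for Spred1, 31.8. The control ranges of Spry2 and Dusp4 overlapped, as did those of Spred1 and Etv5. Those of Etv5 and the gene that followed it, Spred2, overlapped as well, although Etv5 was the higher in each of the 3 control libraries. Spred2 stood at 16.6 ± 2.44, Etv4 at 14.9 ± 5.08, Dusp6 at 12.7 ± 3.27, Spry1 at 11.4 ± 5.53, Etv1 at 9.39 ± 3.92 and Spry4 at 8.62 ± 4.40 CPM per kilobase. The ranges of these 6 genes overlapped from each to the next in this order.

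The 10 genes differed more between replicate numbers than between the groups. Libraries with number 2 were the lowest pair of the 6 for 8 of the 10 genes, and the highest pair for the other 2, Dusp4 and Etv1. Over all tested genes, number 2 was the lowest pair for 18.6% and the highest pair for 18.6%. The highest and the lowest number differed by a median of 0.92 in log2(CPM + 0.5) over the 10 genes, against 0.41 over all genes. The groups differed by a median of 0.11 over the 10 genes and 0.10 over all genes. The range between numbers was 2.92-fold for Spry1, 2.71-fold for Spry4, 2.55-fold for Etv1 and 2.50-fold for Spry2, and 1.25-fold for Spred1 at the low end. It exceeded the group difference in 10 of 10 genes, as it did in 90.1% of all genes, so that count does not set the 10 genes apart. The 10 genes were chosen with earlier results of these data known. Nothing is therefore read from how they differ from all genes in the other values of this paragraph.

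**Figure D1:**
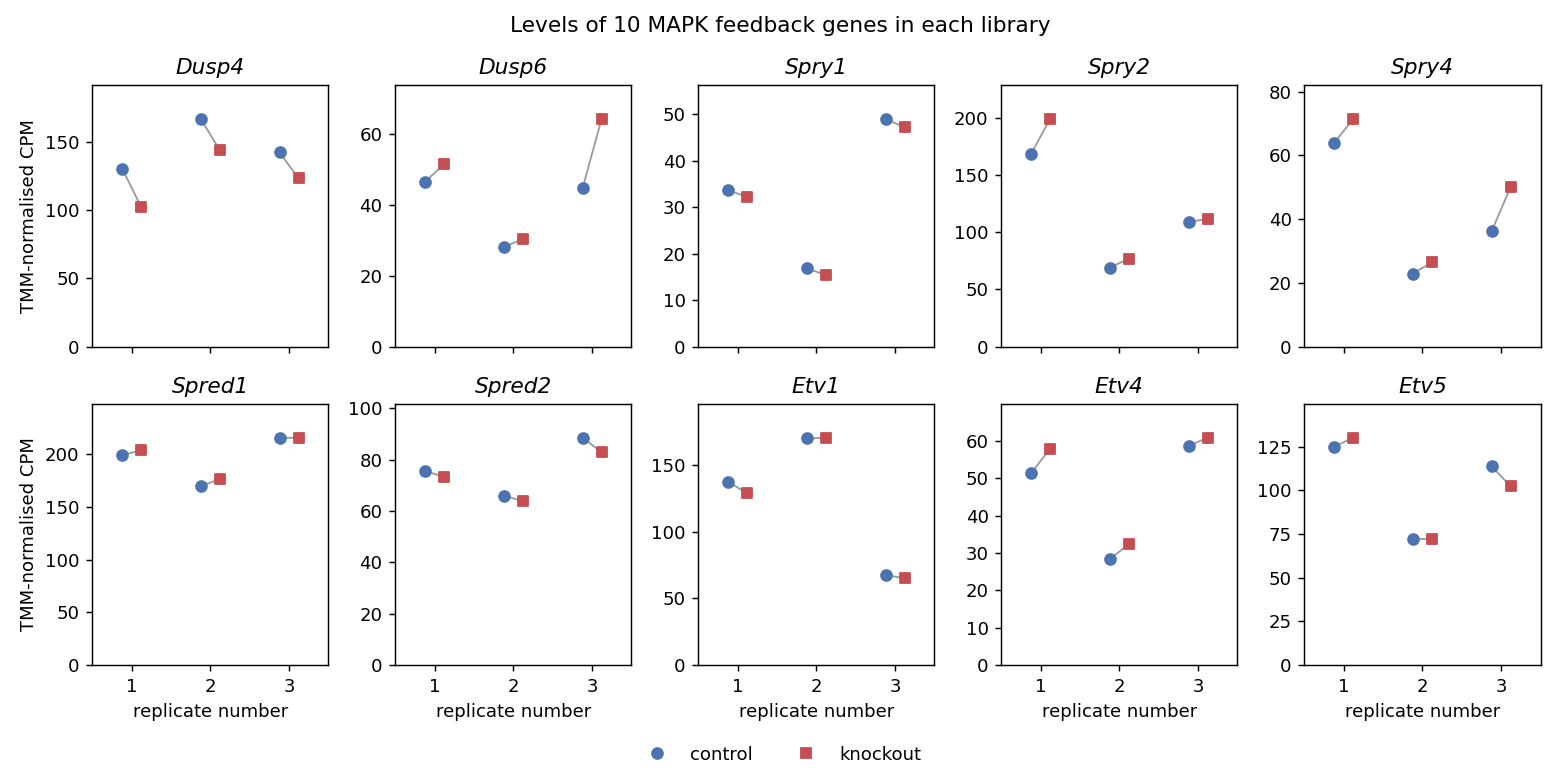
Level of each of the 10 genes (y axis, TMM-normalised CPM, from 0) in the control (circles) and knockout (squares) library of each replicate number (x axis), with lines joining same-numbered libraries. The number 2 libraries sit lowest in 8 panels and highest for Dusp4 and Etv1, and Dusp4 runs downward from control to knockout at every number.

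**Figure D2:**
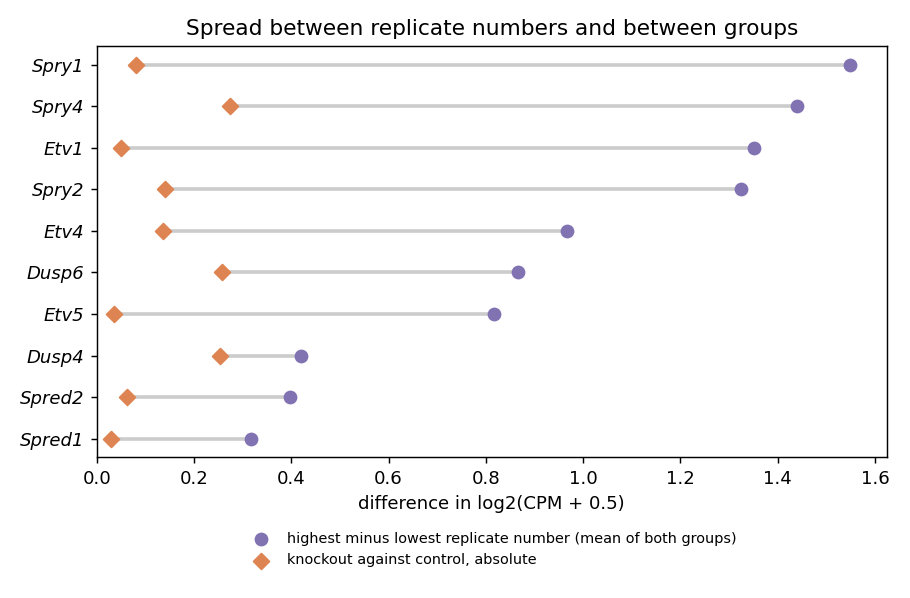
Difference in log2(CPM + 0.5) (x axis) for each gene (y axis), between the highest and lowest replicate number (circles) and between the groups (diamonds, absolute). The circle lies to the right of the diamond for every gene, by most for Spry1 and by least for Dusp4.

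Dusp4, which encodes a nuclear phosphatase of ERK and other MAPKs, was the only member to pass a test, and it was lower in the knockout. Its levels were 130, 167 and 142 CPM in control libraries 1, 2 and 3, and 103, 144 and 123 CPM in knockout libraries. Each knockout library was below the control of its number, while the ranges of the groups overlapped. The mean went from 146 ± 18.5 to 123 ± 20.7 CPM (SD, n = 3). In the paired fit Dusp4 fell to 0.838 of the control level, a log2 difference of -0.25 ± 0.05 (SE, adjusted p = 0.0231 in edgeR). Unpaired, its log2 difference was -0.25 ± 0.16 (SE, adjusted p = 1.00 in edgeR), and it was -0.13 without knockout library 1, -0.15 without control library 2 and -0.38 without knockout library 2. Paired, it passed in all 8 alternative settings that kept every library, with adjusted p from 0.00441 to 0.0433. It did not pass with pair 1 left out (log2 difference -0.20, adjusted p = 0.0724 in edgeR) or pair 3 left out (-0.28, 0.0769), and passed with pair 2 left out (-0.28, 0.0302). In GRCm38 it spans 34807297 to 34819894 of chromosome 8 (plus strand, ENSMUSG00000031530.6), with no other annotated gene over its exons.

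Dusp6, whose product is a cytoplasmic phosphatase with a strong preference for ERK, was higher in the knockout in all 3 pairs but did not pass. Control libraries had 46.7, 28.1 and 44.9 CPM and knockout libraries 51.6, 30.5 and 64.4 CPM. The pair numbered 3 differed most, and the ranges overlapped. In the paired fit the log2 difference was 0.26 ± 0.09 (SE), with a 95% interval of 0.06 to 0.47 and an adjusted p of 0.156 in edgeR. With pair 3 left out it was 0.13 (adjusted p = 0.597). Unpaired, it was 0.29 ± 0.31 (SE, adjusted p = 1.00 in edgeR) and ran from 0.039 without knockout library 3 to 0.54 without knockout library 2. Dusp6 (ENSMUSG00000019960.8, chromosome 10, 99263231 to 99267489 of GRCm38, plus strand) and Dusp4 thus had values on opposite sides of 0, and the difference between the genes was not tested.

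Among the Sprouty genes, which encode inhibitors recruited to receptor complexes at the membrane, none passed. Spry4 had the widest difference between groups of the 3. Its levels were 63.9, 22.9 and 36.2 CPM in control and 71.4, 26.4 and 50.0 CPM in knockout libraries. The knockout was higher at each number, and number 2 was the lowest in both groups. In the paired fit the log2 difference was 0.28 ± 0.08 (SE, 95% interval 0.10 to 0.46, adjusted p = 0.0963 in edgeR). Over the alternatives that kept every library the adjusted p ran from 0.0632 to 0.121. With pair 3 left out the log2 difference was 0.18.

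Spry2 had 169, 69.1 and 109 CPM in control and 199, 76.9 and 111 CPM in knockout libraries. Each knockout library was above the control of its number, least so at number 3. The paired log2 difference was 0.14 ± 0.05 (SE, 95% interval 0.02 to 0.26, adjusted p = 0.193 in edgeR). In GRCm38 it spans 105891947 to 105896819 of chromosome 14 (minus strand, ENSMUSG00000022114.5). Spry1 had 33.7, 16.9 and 49.0 CPM in control and 32.2, 15.4 and 47.3 CPM in knockout libraries. Here the knockout was slightly lower at each number, with a paired log2 difference of -0.08 ± 0.08 (SE, 95% interval -0.26 to 0.10, adjusted p = 0.660 in edgeR). Spry1 (ENSMUSG00000037211.12, chromosome 3, 37639947 to 37644598, plus strand) shares 710 bases of exon with Gm42922 on the opposite strand. Whether the counting used strand is not stated in the labels, so reads of the 2 genes may not be separated and the Spry1 values are uncertain.

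The SPRED genes, whose products recruit neurofibromin to switch RAS off, had the smallest range between replicate numbers of the 10. Spred1 had 199, 170 and 216 CPM in control and 204, 176 and 215 CPM in knockout libraries, nearly the same range in both groups. Its paired log2 difference was 0.03 ± 0.04 (SE, 95% interval -0.05 to 0.11, adjusted p = 0.732 in edgeR). Spred2 had 75.7, 66.1 and 88.6 CPM in control and 73.3, 63.9 and 82.9 CPM in knockout libraries. It was slightly lower in the knockout at each number, with a paired log2 difference of -0.06 ± 0.05 (SE, 95% interval -0.19 to 0.06, adjusted p = 0.602 in edgeR). On the plus strand of GRCm38, Spred1 (ENSMUSG00000027351.14) spans 117121374 to 117182279 of chromosome 2 and Spred2 (ENSMUSG00000045671.17) spans 19924375 to 20024026 of chromosome 11.

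The ETS factor genes did not pass either. Etv4 had 51.4, 28.4 and 58.7 CPM in control and 57.9, 32.4 and 60.9 CPM in knockout libraries, higher in the knockout at each number. Its paired log2 difference was 0.14 ± 0.07 (SE, 95% interval -0.01 to 0.29, adjusted p = 0.326 in edgeR). Etv5 had 125, 72.4 and 114 CPM in control and 130, 71.9 and 102 CPM in knockout libraries. It was higher in the knockout at number 1 and lower at numbers 2 and 3, with a paired log2 difference of -0.03 ± 0.06 (SE, 95% interval -0.16 to 0.09, adjusted p = 0.803 in edgeR).

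Etv1 had 137, 170 and 67.6 CPM in control and 129, 170 and 65.0 CPM in knockout libraries. Its order over the numbers was unlike that of Etv4 and Etv5, with number 2 highest and number 3 lowest in both groups. Its paired log2 difference was -0.05 ± 0.05 (SE, 95% interval -0.15 to 0.06, adjusted p = 0.646 in edgeR). In GRCm38, Etv1 (ENSMUSG00000004151.17) spans 38779380 to 38870484 of chromosome 12, on the plus strand. Etv4 (ENSMUSG00000017724.14) spans 101769742 to 101785371 of chromosome 11 and Etv5 (ENSMUSG00000013089.15) spans 22381309 to 22439719 of chromosome 16, both on the minus strand.

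Of the 10 genes, 0 were called without the block, as were 0 of 15906 tested genes (0%) in edgeR. At an unadjusted p under 0.05, that test had 0 of the 10 genes and 274 of all genes (1.72%). DESeq2 without the block, at an adjusted p under 0.05, called 0 of the 10 and 20 of all genes (0.126%). Paired, 1 of the 10 fell, 0 rose and 9 did not pass. Of all tested genes 3.80% passed, 354 falling (2.23%) and 250 rising (1.57%). The count of 604 genes behind this share was 174 with pair 3 left out, 385 after GC correction and 1034 with no filter on low counts. Under other scalings the split leaned the other way, with 271 rising and 231 falling for library totals and 289 rising and 247 falling for upper quartiles. At an unadjusted p under 0.05 the paired fit had 4 of the 10 genes and 18.2% of all genes. With a single call among 10 genes, nothing about the group is read from its difference from these shares. The median paired log2 difference was 0.00 over the 10 genes and 0.00 over all tested genes. Groups that did not overlap were found for 0 of the 10 genes, against 6.34% of all genes, of which the knockout was higher for 2.75% and lower for 3.60%. The knockout was higher in all 3 pairs for 4 of the 10 genes (Dusp6, Spry2, Spry4 and Etv4) against 19.6% of all genes, and lower in all 3 for 3 (Dusp4, Spry1 and Spred2) against 20.9%. In total 7 of the 10 kept 1 direction over the pairs, against 40.5% of all genes. The 95% intervals are not adjusted for the number of genes, and those of Dusp6, Spry2 and Spry4 exclude 0 although their adjusted p-values do not pass.

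**Figure D3:**
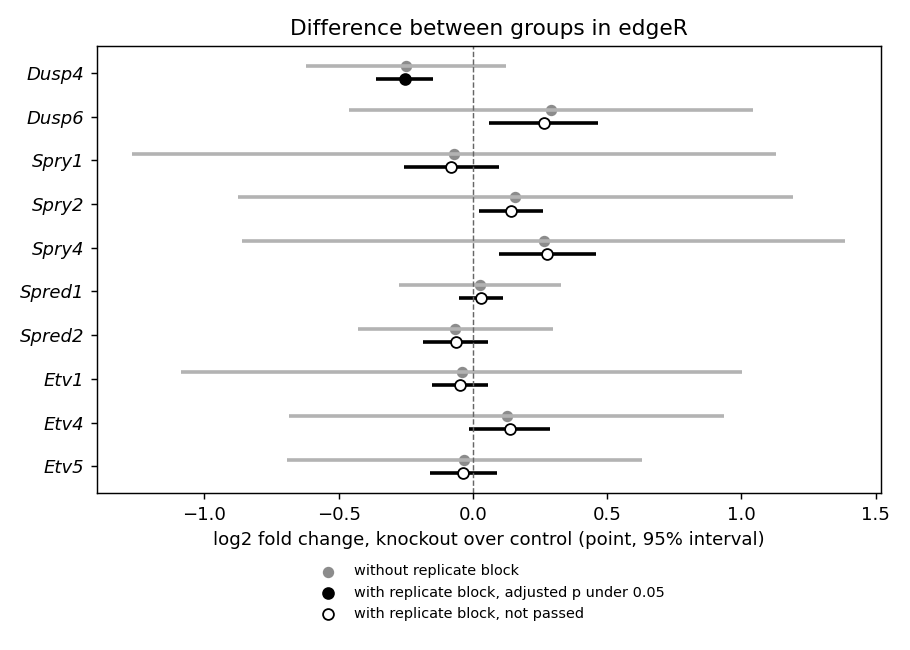
Log2 fold change of knockout over control (x axis; point with 95% interval) for each of the 10 genes (y axis), in edgeR without the replicate block (grey) and with it (black, filled where the adjusted p is under 0.05). Dusp4 at -0.25 is the only filled point, and Spry4 at 0.28 and Dusp6 at 0.26 lie on the other side of 0.

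Marker sums of neurons, astrocytes, endothelial cells, and pericytes with fibroblasts differed between the numbers and, in 1 direction at every number, between the groups. The 10 neuronal markers summed to 2747, 4042 and 3213 CPM in control libraries 1, 2 and 3 and to 2309, 3752 and 2734 CPM in knockout libraries. They were highest at number 2 and lower in the knockout at each number, as was Dusp4. Etv1 was highest at number 2 too, but was not lower in the knockout there. The 8 astrocyte markers summed to 2418, 1345 and 2045 CPM in control and 2862, 1571 and 2347 CPM in knockout libraries. These were lowest at number 2 and higher in the knockout at each number, as were Spry2, Spry4, Dusp6 and Etv4. The other members lowest at number 2 went otherwise. Spry1 and Spred2 were lower in the knockout at each number, and Spred1 and Etv5 changed direction between numbers. The sum of the OPC markers was lowest at number 2 as well, at 2747 (control) and 2730 (knockout) CPM. Ptprz1 alone gave 1372 and 1514 CPM of these. Pdgfra, Cspg4, Olig1, Ptprz1 and Lhfpl3 were each lowest at number 2 in both groups. The other OPC markers were not: Olig2, Sox10, Gpr17, Neu4 and Vcan were lower in control library 3 than in control library 2.

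The 9 endothelial markers summed to 59.1, 19.9 and 87.9 CPM in control and 125, 45.2 and 301 CPM in knockout libraries. The widest difference was at number 3, where Dusp6 and Spry4 also differed most. Other members went otherwise. Spry2 and Etv4, also higher in the knockout at each number, differed least at number 3. Spred2 and Etv5 differed most at number 3 too, but were lower in the knockout there. Paired, 8 of 9 endothelial and 4 of 8 astrocyte markers rose, 3 of 10 neuronal markers fell, and 2 of 8 pericyte and fibroblast markers rose. The 8 pericyte and fibroblast markers summed to 167, 85.9 and 529 CPM in control and 177, 112 and 800 CPM in knockout libraries. Their sum was higher in the knockout at each number. The 7 microglia markers ran from 10.9 to 197 CPM in control and 9.18 to 195 CPM in knockout libraries, and the 8 myelin markers from 227 to 944 and 274 to 750 CPM. Both of these sums differed between the groups in different directions at different numbers. No marker of any of these lists was at 0 in any library. The part of these cell types in the values of the feedback genes was not tested.

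**Figure D4:**
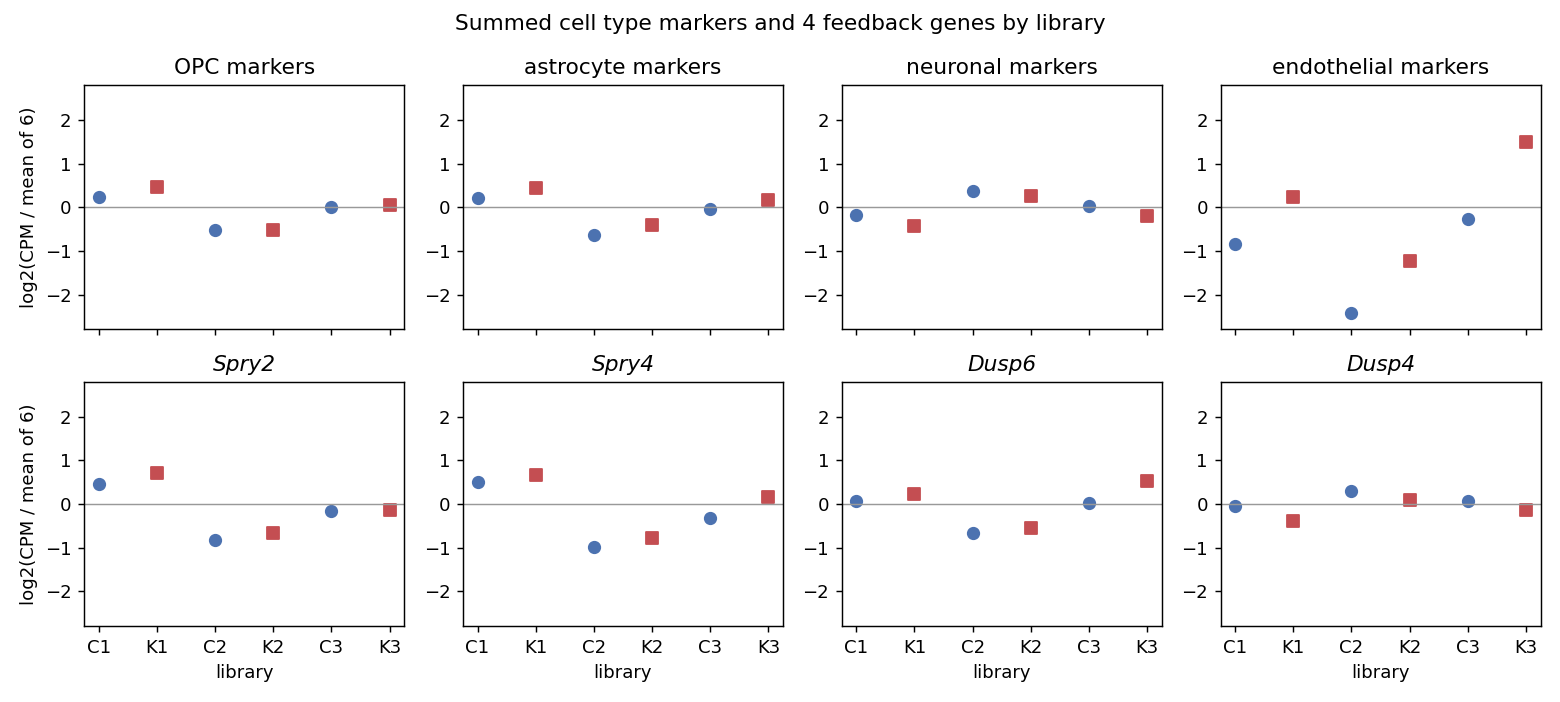
Summed markers of 4 cell types (upper panels) and levels of Spry2, Spry4, Dusp6 and Dusp4 (lower panels) in each library, as log2 of CPM over the mean of the 6 libraries (y axis). The other members are not drawn here. C and K stand for control and knockout with the replicate number (x axis). The sums of OPC and of astrocyte markers are lowest at number 2, as are Spry2, Spry4 and Dusp6. The sum of neuronal markers and Dusp4 are highest there. Single markers can differ from their sum.

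The rest of the pathway was described from 8 lists with 87 genes, of which 85 were tested. With the block 7 rose, 2 fell and 76 did not pass, and without it 0 passed in edgeR. Of all tested genes, 1.57% rose and 2.23% fell with the block. The lists were chosen with earlier results of these data known, so nothing is read from their difference from these shares. Among 10 tested genes of other feedback inhibitors, Lrig1 rose and 9 did not pass. Lrig1, which encodes a membrane protein that restrains receptor tyrosine kinases, went from 134 ± 52.1 to 155 ± 58.0 CPM (SD, n = 3), a paired log2 difference of 0.22 ± 0.04 (SE, adjusted p = 0.0302 in edgeR). It did not pass with pair 1 or pair 3 left out (adjusted p = 0.0952 and 0.103 in edgeR).

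Of 10 other output genes of ERK tested, Epha2, Emp1, Fos and Egr1 rose, 0 fell and 6 did not pass, where 1.57% of all tested genes rose. The median of the 10 was 0.16 on the log2 scale, against 0.00 over all tested genes. This list was chosen with earlier results of these data known, so nothing is read from its difference from all genes. Epha2, an ephrin receptor, had 16.98, 7.29 and 26.5 CPM in control and 29.4, 12.2 and 46.0 CPM in knockout libraries. It was higher in the knockout at each number, with a paired log2 difference of 0.78 ± 0.09 (SE, adjusted p = 0.00375 in edgeR), and it passed whichever of the 3 pairs was left out. The membrane protein gene Emp1 was at 0.47 ± 0.09 (SE, adjusted p = 0.0281 in edgeR). It passed whichever pair was left out, at 0.30 with pair 2 left out. The immediate early genes Fos and Egr1 were at 0.35 ± 0.04 (SE, adjusted p = 0.00606 in edgeR) and 0.22 ± 0.05 (SE, adjusted p = 0.0428 in edgeR). Fos passed whichever pair was left out (adjusted p from 0.0088 to 0.016 in edgeR). Egr1 did not pass with pair 1 or pair 3 left out (adjusted p = 0.0656 and 0.181 in edgeR). Ccnd1, which encodes the cyclin that carries growth factor signals into the cell cycle, had 258, 40.3 and 78.5 CPM in control and 277, 49.0 and 76.1 CPM in knockout libraries. It varied between numbers more than between groups, and its paired log2 difference was 0.11 ± 0.06 (SE, adjusted p = 0.40 in edgeR), or 0.033 with pair 2 left out. Some endothelial and astrocyte markers rose in the same comparison, and their part in these values was not tested.

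Among receptors and ligands, 1 of 15 receptors and 2 of 12 tested ligands passed. Cntfr, the receptor subunit that binds the CNTF of the medium, went from 67.2 ± 12.5 to 55.5 ± 12.5 CPM, a paired log2 difference of -0.28 ± 0.06 (SE, adjusted p = 0.0328 in edgeR). It did not pass whichever of the 3 pairs was left out (adjusted p from 0.0716 to 0.129 in edgeR), with library totals (0.0576), with upper quartile scaling (0.0523) and after correction for GC content (0.0980). Its log2 difference stayed between -0.22 and -0.32 in these settings. The PDGF receptor gene Pdgfra did not pass, with control libraries at 382, 182 and 344 CPM and knockout libraries at 396, 200 and 366 CPM, with a paired log2 difference of 0.09 ± 0.04 (SE, adjusted p = 0.222 in edgeR). It too was lowest at number 2 in both groups. Fgfr1, which encodes a receptor for the bFGF of the medium, was at 0.06 ± 0.04 (SE, adjusted p = 0.519 in edgeR). The ligand gene Hbegf, an activator of the EGF receptor, rose from 26.5 ± 11.8 to 37.9 ± 13.2 CPM (SD, n = 3; paired log2 difference 0.55 ± 0.10 SE, adjusted p = 0.0205 in edgeR). Igf2, a growth factor abundant in vessel-associated and meningeal cells, was at 0.53 ± 0.09 (SE, adjusted p = 0.0158 in edgeR) and stood highest in the number 3 libraries, at 354 and 580 CPM. Neither passed with pair 3 left out (adjusted p = 0.110 for Hbegf and 0.107 for Igf2 in edgeR), nor did Igf2 with DESeq2 (0.0535).

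The core of the cascade did not pass. Of 11 adaptor and RAS genes and 12 genes of RAF, MEK, ERK and the kinases next to them, 0 rose and 0 fell, with medians of 0.02 and -0.01 on the log2 scale. Mapk3, encoding ERK1, stood at 85.5 ± 13.1 CPM (SD, n = 3) in control libraries and at 85.2 ± 6.63 CPM in the knockout, and Map2k1, encoding MEK1, at 37.4 ± 1.10 and 39.6 ± 2.56 CPM. The sign of Mapk3 differed between scalings without the block, at values within 0.03 of 0 on the log2 scale. Map2k2, encoding MEK2, had the smallest p of the kinases, with a paired log2 difference of -0.22 ± 0.07 (SE, adjusted p = 0.110 in edgeR), and was at -0.08 after GC correction. Its control libraries had 88.5, 82.0 and 83.1 CPM and its knockout libraries 70.1, 67.6 and 80.3 CPM. The groups did not overlap for this gene, as for 6.34% of all tested genes. Shc1 among the adaptors was at 0.20 ± 0.10 (SE, adjusted p = 0.315 in edgeR) and at 0.067 with pair 3 left out. Of 5 further MAPK phosphatases (Dusp1, Dusp2, Dusp8, Dusp10 and Dusp16) the nearest to the threshold was Dusp1 at 0.17 ± 0.05 (SE, adjusted p = 0.124 in edgeR).

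Of 10 ETS factors, Capicua and its partners, Cic fell with the block and 9 did not pass. Cic had 493, 508 and 426 CPM in control and 440, 445 and 390 CPM in knockout libraries, lower in the knockout at each number. Its paired log2 difference was -0.16 ± 0.04 (SE, adjusted p = 0.0499 in edgeR), just inside the threshold. Correcting for the GC content of transcripts moved it to -0.02 (adjusted p = 0.821 in edgeR). Nor did it pass whichever of the 3 pairs was left out (adjusted p from 0.115 to 0.215 in edgeR), with DESeq2 size factors (0.0547), library totals (0.0794), upper quartile scaling (0.0781) and a mean of at least 5 CPM (0.0835). In these settings other than GC correction its log2 difference stayed between -0.14 and -0.18. Cic passed in 3 of the 8 alternative settings that kept every library. Of the genes with a Capicua octamer or core in the printed stretches, Dusp6 and Spry2 had higher and Etv5 lower mean log2 values in the knockout, and none of them passed.

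**Figure D5:**
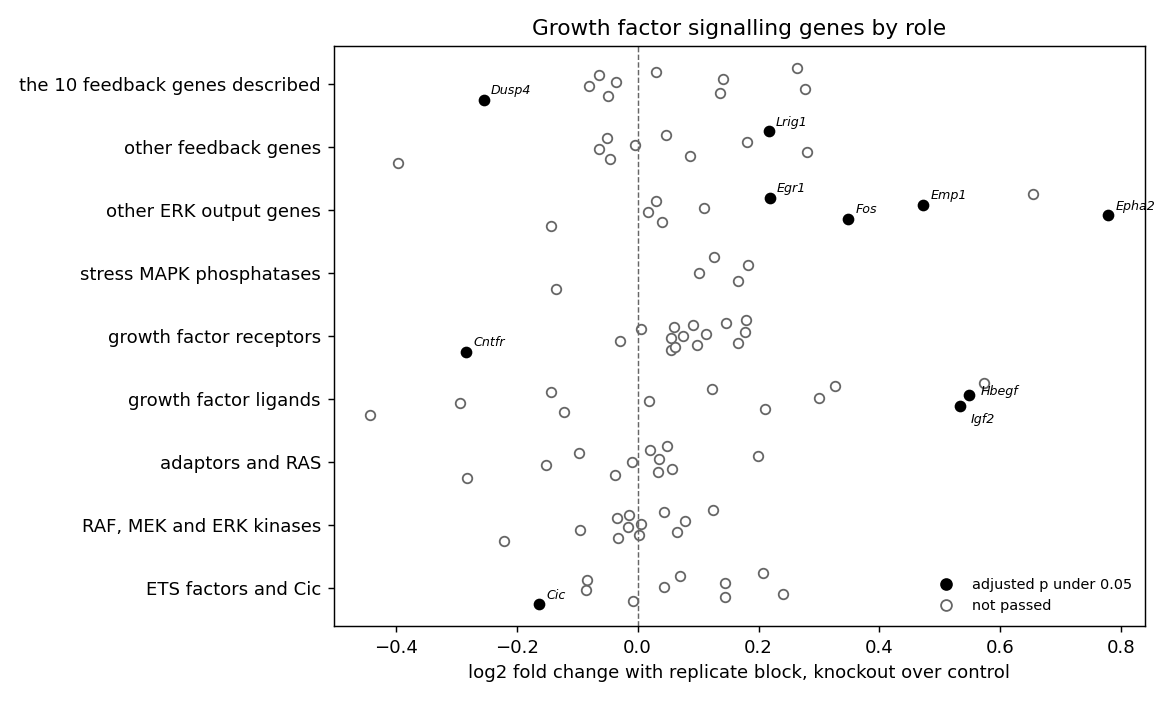
Paired log2 difference of knockout over control (x axis) for each tested gene, by role in growth factor signalling (y axis), with filled points for an edgeR adjusted p under 0.05. Filled points lie on the right for Epha2, Hbegf, Igf2, Emp1, Fos, Egr1 and Lrig1, and on the left for Cntfr, Dusp4 and Cic, while the kinases and adaptors have none.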

How the data were processed

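The 3 control and 3 knockout libraries were made from poly(A) RNA with strand marking and read from both ends, per the labels' protocols. The deposited tables give raw counts of read pairs for each gene symbol. HISAT2 2.2.1, HTSeq 0.12.4 and DESeq2 1.26.0 are listed with mm10 in the submitters' processing notes. Parameters, annotation and strand use are not given in the sources at hand. The 5 summary entries per table were set aside (29.7% of read pairs on average). edgeR's filter on low expression left 15906 genes, with 99.95% of gene counts, which were TMM-scaled (factors 0.972 to 1.02). The main test was edgeR's quasi-likelihood test (edgeR 4.0.16, R 4.3.3), two-sided, with no term but group. Benjamini-Hochberg adjustment ran over all tested genes, and a gene passed under 0.05. The members and lists were chosen with earlier results of these data known.

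A paired fit added the replicate number as a block. What a number marks is not stated in the labels. Across genes, same-numbered libraries had correlated deviations of log2(CPM + 0.5) from their group means (0.778, 0.751 and 0.726), and the pairing was taken from this. Other correlations were negative, an effect that centring on group means can produce. Biological variation (BCV) came to 0.315 unpaired and 0.104 paired, with 4 and 2 residual degrees of freedom. Named pathway genes were Prrc2b, 8 reference genes of the cascade (1 more is not reported here), every listed gene that passed when paired, and the gene of smallest p in each list. GENCODE M21 (GRCm38) gave exon lengths, positions and GC content (for 96.4% of tested genes), and RefSeq the promoters. Unused per-sample columns numbered 0. Alternatives were other scalings and filters, DESeq2 1.42.0, limma-voom (limma 3.58.1), GC correction in 20 bins, and left-out libraries. The code was tested on simulated data.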

Additional observations from a re-analysis of the deposited data

Results flagged for a closer look

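For 3 of the 5 summary entries, which count read pairs given to no gene, the knockout share exceeded the control share with no overlap between libraries. Pairs falling in no gene were 19.7% ± 0.67 of a control library and 20.8% ± 0.50 of a knockout library (SD, n = 3). Pairs of low alignment quality were 3.11% ± 0.19 and 3.83% ± 0.25, and unaligned pairs 1.03% ± 0.10 and 1.25% ± 0.12. Shares were taken of all read pairs listed for the library. The part of these shares in the values of the 10 feedback genes was not tested.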

How the results depend on the processing

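Unpaired, edgeR called 0 genes and 0 of the 10 feedback genes in the scalings, filters and left-out libraries tried. With the main filter and every library, limma-voom called 0 and 0, and DESeq2 20 and 0. The replicate block raised these counts from 0 and 0 to 604 and 1, the 1 being Dusp4. Paired counts were 1034 with no filter on low counts, 385 after GC correction, and 174 to 521 over the left-out pairs (0 to 1 of the 10), 174 being without pair 3. Of paired calls, 250 of 604 were rises, against 271 of 502 with library totals and 289 of 536 with upper quartile scaling. The block added no other call among the 10. Dusp4 was called in each paired alternative that kept all libraries. Of the 10 feedback genes, 0 were called unpaired under any left-out library, and the signs of 8 depended on it. The lowest and highest unpaired log2 values over the left-out libraries were -0.48 and 0.33 for Spry1, -0.30 and 0.53 for Spry2, -0.10 and 0.74 for Spry4, -0.064 and 0.11 for Spred1, -0.16 and 0.053 for Spred2, -0.37 and 0.26 for Etv1, -0.13 and 0.36 for Etv4, and -0.25 and 0.16 for Etv5. They were -0.18 and 0.33 for Pdgfra, -0.17 and 0.24 for Fgfr1, -0.26 and 0.67 for Egr1, -1.01 and 1.18 for Ccnd1, -0.10 and 0.11 for Mapk3, -0.055 and 0.51 for Lrig1, and -0.81 and 1.80 for Igf2. Paired, only Etv5 among the 10 changed sign, to 0.027 without pair 3. Of the other genes named, Mapk3 changed sign at values near 0. Unpaired (no replicate block), it was at -0.0057, and at 0.023 with library totals, 0.021 with upper quartile scaling, 0.015 at a mean of at least 5 CPM, and 0.0049 with limma-voom. Paired, it was at 0.0020, and at -0.0024 with no filter, -0.0028 with limma-voom, -0.031 without pair 1 and -0.035 without pair 3. The cause of these changes was not tested.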
